A study of Mus musculus with 2 samples.

Results

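Transcripts of 34 genes for neutrophil granule proteins and their companions were followed in mouse alveolar bone, the jaw bone that holds the teeth, among 57126 genes with a symbol in the count files. The genes were chosen by symbol, and their counts of unique molecular identifiers (UMIs, one per captured RNA molecule) were read along 4 marker gates, from progenitors to mature neutrophils. The bone came from C57BL/6J mice aged 6 to 8 weeks and weighing 20 to 25 g, all of which carried a nickel-titanium coil spring between the upper right first molar and the incisors. In the tooth movement group the spring pulled with 25 g, in the control group it exerted no force, and on day 7 the molar was extracted and the bone up to 1 mm around its socket collected. Cells of 6 mice per group were pooled into 1 library each, so individual mice cannot be told apart. The labels do not say which of the 2 libraries is which group. Force and control were therefore not compared, and each library is described on its own, as library 1 and library 2.

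Neutrophils make their granules in successive waves while they mature. Azurophil granules, filled with myeloperoxidase and serine proteases, are packed first, in promyelocytes. Specific granules, with lactoferrin and the cathelicidin precursor, follow in myelocytes and metamyelocytes, and gelatinase granules and secretory vesicles come last. Because the proteins are stored, a mature neutrophil can hold a granule protein whose transcript it no longer makes.

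The Mpo-high gate took cells with at least 5 UMIs of Mpo and 1000 CPM, the UMIs of a gene per 1000000 UMIs of the cell or, for a gate's level, of all its cells together. The Fcnb-positive gate took the remaining cells with at least 3 UMIs and 500 CPM of Fcnb. The Ly6g-positive gate then took those with at least 2 UMIs of Ly6g and more Ly6g than Csf3r, and the Csf3r-positive gate those with at least 2 UMIs of Csf3r and more Csf3r than Ly6g. The gates order cells by markers, not by time. Mpo and Fcnb are both members and gate genes, so where they stand is partly a definition. In library 1 the gates held, in this order, 233, 303, 347 and 1160 of 9562 cells, and in library 2 they held 473, 405, 583 and 737 of 11634 cells. Median depth fell along the gates, from 14789 to 9077, 4510 and 2290 UMIs per cell in library 1 and from 19104 to 12025, 5617 and 2983 in library 2. Ms4a3, a progenitor gene, was highest in the Mpo-high gate, at 1115 and 1191 CPM in libraries 1 and 2. Cebpe, the factor of the specific granule stage, was highest in the Fcnb-positive gate, at 397.5 and 426.4 CPM. Cxcr2, the chemokine receptor of mature neutrophils, was highest in the Csf3r-positive gate, at 500.1 and 752.3 CPM. Gfi1, listed as a marker of immature cells, did not follow its list and was highest in the Mpo-high gate, at 72.1 and 50.5 CPM.

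Cells with at least 3 UMIs and 1000 CPM of another lineage's marker list, or 10000 CPM for stroma, were left out of the gates beforehand. This removed 346 and 410 cells in libraries 1 and 2. The monocyte and stroma gates used below were drawn on the same lists. The list sums that follow are thus partly set by these filters and do not measure the purity of the gates. They were low but not at 0 in the neutrophil gates. The 6 genes of a monocyte list (Csf1r, Ms4a6c, F13a1, Ly86, Cx3cr1, Ccr2) summed to 16.8 to 131.1 CPM over the gates of library 1 and to 13.9 to 143.9 CPM in library 2, highest in the Mpo-high gate, against 2998 and 3166 CPM in a monocyte gate. Of these genes Cx3cr1 was at 0 in the Ly6g-positive gate of library 1, and the rest had UMIs in every neutrophil gate. Ly6c2, Irf8 and Csf1r were read for monocyte progenitors. In the Mpo-high gate Ly6c2 stood at 3313 and 2793 CPM, beside 3942 and 4389 CPM in the monocyte gate. Irf8 stood at 38.4 and 25.6 CPM, beside 272.8 and 151.6 CPM, and Csf1r at 26.0 and 18.0 CPM, beside 221.0 and 349.0 CPM. Whether monocyte progenitors lay in the Mpo-high gate was not tested. A stroma list of 4 genes summed to 1582 to 2635 CPM in library 1 and 590.5 to 1499 CPM in library 2, against 136400 and 133600 CPM in a stroma gate. The part of such RNA in the member values was not tested. A gate of B cells, which should lack granule transcripts, is given below as the background of free RNA. Shares of cells with a UMI are also given after each cell was thinned to 1000 UMIs, which left out 4, 1, 0 and 69 shallower cells of the 4 gates and 53 B cells in library 1 and 0 in library 2. The libraries shared 70 cell barcodes, 0.732% of the cells of library 1 and 0.602% of those of library 2. Intervals are exact 95% Poisson or Clopper-Pearson intervals and cover counting error only.

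Together the 34 genes made up a large part of the RNA of immature neutrophils. In library 1 they gave 7.13% of all UMIs in the Mpo-high gate, 29.0% in the Fcnb-positive gate, 33.1% in the Ly6g-positive gate and 14.7% in the Csf3r-positive gate. In library 2 these shares were 6.80%, 36.3%, 38.4% and 23.0%. The share was lowest in the Mpo-high gate and highest in the Ly6g-positive gate in both libraries. It was 2.17% and 2.01% in the monocyte gate, 0.703% and 0.675% in the B gate and 0.492% and 0.327% in the stroma gate. Barcodes of 10 to 100 UMIs, which hold mostly free RNA, carried 6.37% and 7.13% of their UMIs on these genes. S100a8 and S100a9, the 2 subunits of calprotectin, alone gave 19.1% and 23.9% of the UMIs of the Ly6g-positive gate. Because shares sum to a whole, this mass lowers the CPM of every other gene. Scaling to the UMIs of the other genes instead shifted all log2 differences up by 0.39 and 0.55 between the Mpo-high and Fcnb-positive gates, and down by 0.35 and 0.32 between the Ly6g-positive and Csf3r-positive gates, in libraries 1 and 2.

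**Figure D1:**
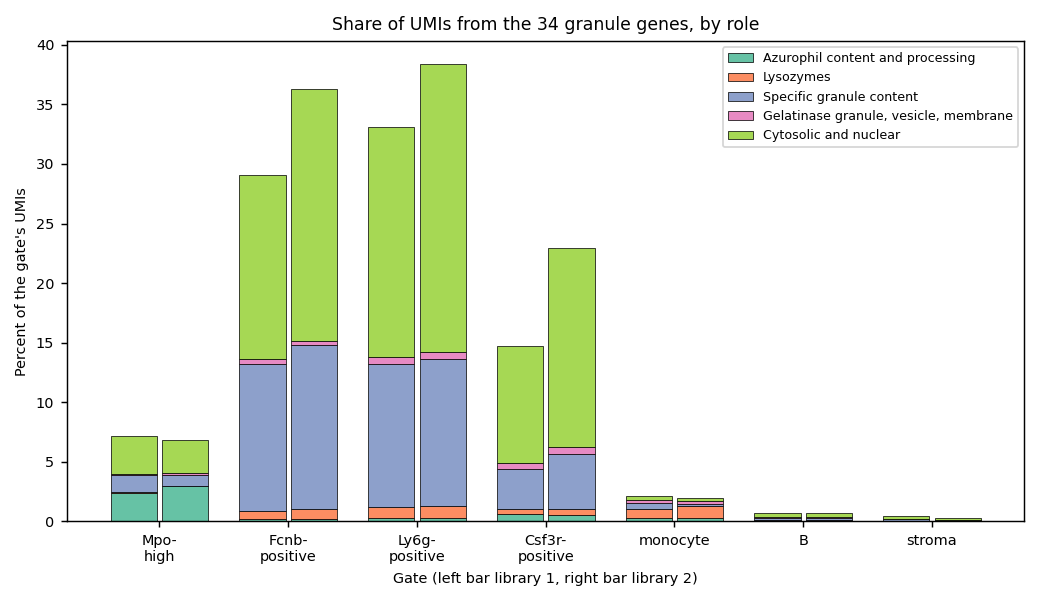
Percent of each gate's UMIs that came from the 34 genes, stacked by the role of the gene, with library 1 as the left and library 2 as the right bar of each pair. The bars reach 33.1% and 38.4% in the Ly6g-positive gate and stay at or under 2.17% in the monocyte, B and stroma gates.

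The serine proteases of azurophil granules were transcripts of the earliest gate. Elane, which encodes neutrophil elastase, stood at 6212 CPM (95% interval 6132 to 6292) in the Mpo-high gate of library 1, then at 343.8, 20.9 and 45.0 CPM in the 3 later gates. In library 2 it stood at 7526 CPM (7473 to 7580), then at 379.4, 28.3 and 68.1 CPM. Its level in the Ly6g-positive gate was thus no higher than in the B gate, which held 23.8 and 52.8 CPM. Prtn3, which encodes proteinase 3, gave 5739, 430.3, 33.2 and 50.5 CPM along the gates of library 1 and 7736, 516.6, 42.4 and 117.6 CPM in library 2. Ctsg, for cathepsin G, gave 1963, 30.8, 10.7 and 17.7 CPM in library 1 and 2557, 23.1, 13.3 and 36.9 CPM in library 2. All 3 were at least 2-fold higher in the Mpo-high gate than in every other gate in both libraries, and no other of the 31 members tested was. Of all 10189 measured genes outside the gate genes 21.8% were, so 3 of 31 members is a smaller share than the background. Mpo itself, the peroxidase that defines the gate, fell from 6932 to 104.0 CPM and from 8569 to 95.6 CPM at the border it sets.

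The 3 proteases did not fall by the same factor. From the Mpo-high to the Fcnb-positive gate Elane was 18.1-fold and 19.8-fold lower and Prtn3 13.3-fold and 14.97-fold lower in libraries 1 and 2, while Ctsg was 63.6-fold and 110.9-fold lower. A Prtn3 UMI was found in 59.7% and 65.9% of Fcnb-positive cells, an Elane UMI in 40.3% and 46.7% and a Ctsg UMI in 18.5% and 20.7%. In cells thinned to 1000 UMIs, 21.5% and 24.4% of Fcnb-positive cells still had a Prtn3 UMI and 12.9% and 20.7% an Elane UMI, against 3.97% and 2.72% for Ctsg. In the B gate these thinned shares were 3.54% and 6.76% for Prtn3, 3.13% and 4.93% for Elane and 1.23% and 2.47% for Ctsg. As a part of its CPM in the Mpo-high gate, Prtn3 was at 0.0680 and 0.0642 in the monocyte gate, close to 0.0750 and 0.0668 in the Fcnb-positive gate. Elane was at 0.0161 and 0.0201 in the monocyte gate, beside 0.0553 and 0.0504. Ctsg was higher in the monocyte gate, at 0.0421 and 0.0323, beside 0.0157 and 0.00901. Without thinning, 1.08 UMIs of Mpo, 3.57 of Elane, 4.46 of Prtn3 and 0.320 of Ctsg were counted per Fcnb-positive cell of library 1. A second set of gates was drawn without any member gene. It called progenitors by Ms4a3 with Kit or Cd34 and early immature cells by Cebpe without Kit or Cd34, with 143 and 458 cells in library 1 and 292 and 635 cells in library 2. Progenitors over early immature cells, the ratio of CPM was 5.07 and 3.32 for Elane and 4.87 and 3.40 for Prtn3, but 7.63 and 4.70 for Mpo and 10.8 and 5.54 for Ctsg. Elane and Prtn3 thus had smaller ratios than Ctsg in both libraries under both sets of gates, and smaller ratios than Mpo in the gates that Mpo did not set.

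Elane and Prtn3 are neighbours on chromosome 10, with 0 other protein-coding genes between them in the RefSeq annotation of GRCm38.p6. Their promoters are shown because both fell by smaller factors than Ctsg. Each line gives the 200 bases before the transcription start, 5′ to 3′ on the gene's strand, from RefSeq on GRCm38.p6, and capitals mark the letters GAGGAA, a core that the myeloid factor PU.1 is known to bind. Elane lies at chr10:79886112-79886311 and Prtn3 at chr10:79879467-79879666, both on the plus strand.
Elane: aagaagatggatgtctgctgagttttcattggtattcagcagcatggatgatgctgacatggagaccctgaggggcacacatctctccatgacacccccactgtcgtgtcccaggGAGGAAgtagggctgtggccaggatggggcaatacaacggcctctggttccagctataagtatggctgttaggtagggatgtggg
Prtn3: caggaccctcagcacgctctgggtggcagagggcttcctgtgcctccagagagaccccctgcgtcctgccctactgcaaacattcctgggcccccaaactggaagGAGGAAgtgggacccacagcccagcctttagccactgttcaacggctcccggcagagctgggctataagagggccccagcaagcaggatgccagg
The match begins 85 bases before the start of Elane and 95 bases before that of Prtn3. Searched on both strands of windows from 250 bases before to 50 after the start, GAGGAA was found for 18 of the 31 members in the table, the 4 genes Mpo, Elane, Prtn3 and Ctsg among them. It occurs in 28.3% of all 32851 windows of the table. A match is a description of letters, not evidence of binding.

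**Figure D2:**
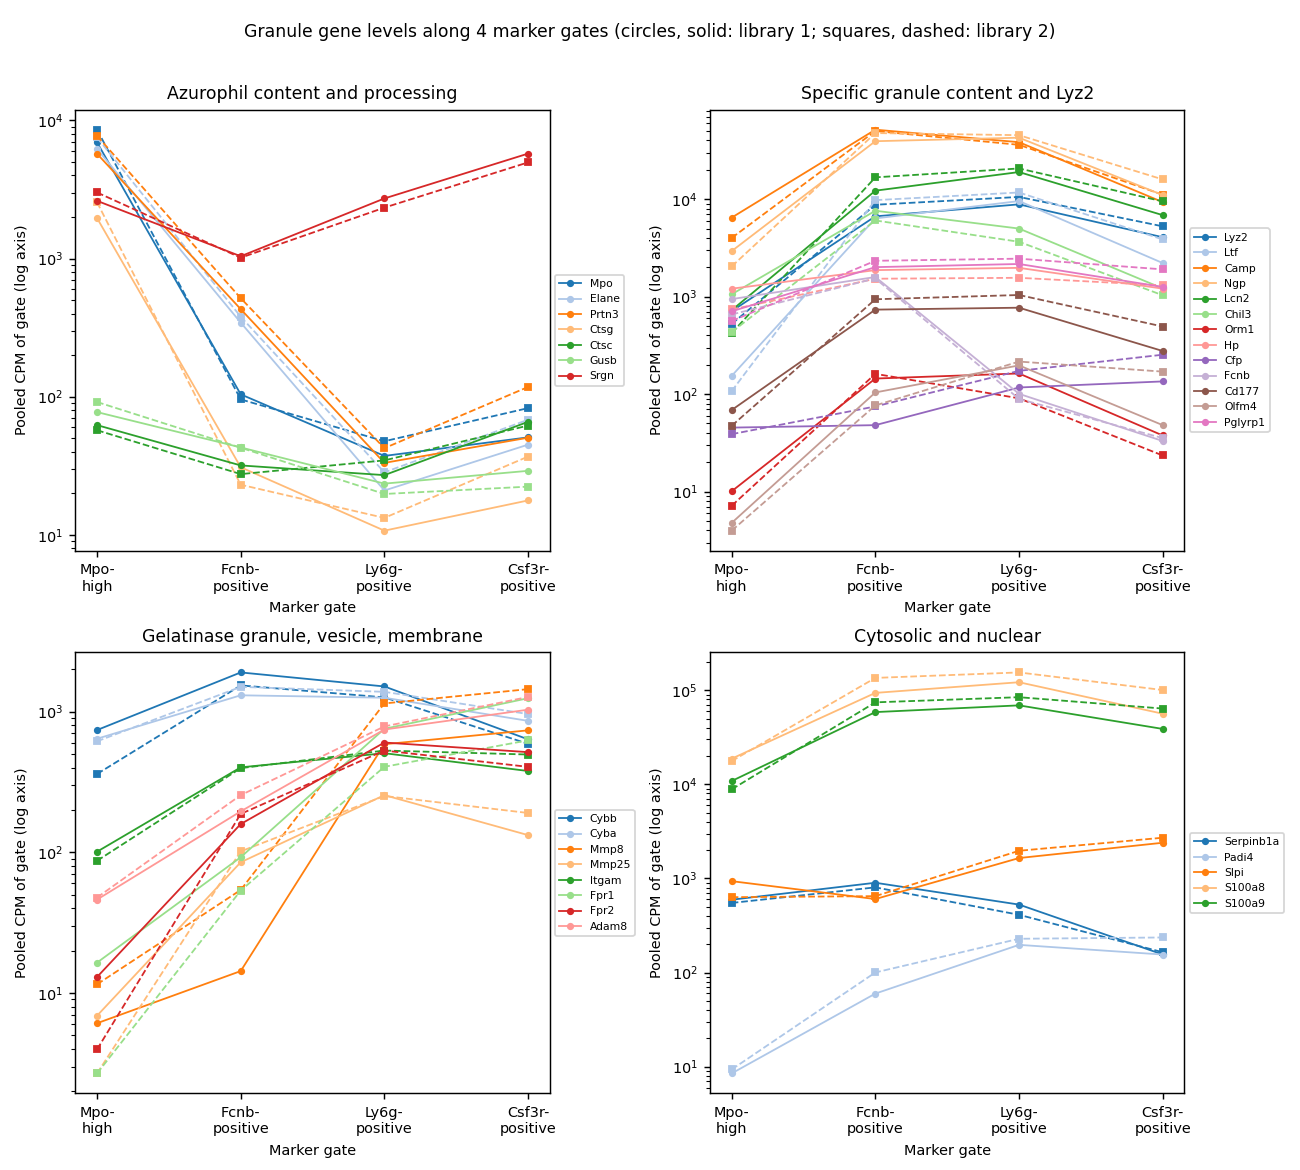
Pooled CPM of each measured member in the 4 marker gates on a log axis, in 4 panels by role, with library 1 as circles on solid lines and library 2 as squares on dashed lines. Elane, Prtn3, Ctsg and Mpo drop after the Mpo-high gate, Camp, Ngp, Lcn2 and Ltf reach their plateau in the Fcnb-positive and Ly6g-positive gates, and Srgn dips to 1039 and 1014 CPM before it is highest.

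The Mpo-high gate itself held an early and a late end, in a division made after values had been seen. Cells with Kit or Cd34 and no Cebpe numbered 37 and 71 in libraries 1 and 2, and cells with Cebpe and no Kit or Cd34 numbered 71 and 125. From the first to the second set, Elane stood at 2877 against 5823 CPM in library 1 and at 2692 against 8249 CPM in library 2. Prtn3 stood at 3846 against 5266 CPM and at 3897 against 8211 CPM. Mpo did not share a direction between the libraries, with 6219 against 5026 CPM and 6427 against 7508 CPM, and neither did Ctsg, with 1571 against 1050 CPM and 1465 against 1925 CPM. Most specific granule genes were higher in the late set, but not all. Camp, the cathelicidin precursor, stood at 631.1 against 16300 CPM in library 1 and at 208.4 against 10950 CPM in library 2, with 629.9 and 525.5 CPM in the B gate. Fcnb, which encodes the lectin ficolin B, stood at 81.2 against 1669 CPM and at 17.9 against 1371 CPM. Chil3, a chitinase-like lectin, stood at 170.3 against 2251 CPM and at 26.9 against 1062 CPM. Ltf stood at 84.3 against 298.3 CPM and at 31.4 against 269.2 CPM, with 113.5 and 118.8 CPM in the B gate. Hp was well above its B-gate level of 42.0 and 22.2 CPM in the early set already, at 673.3 against 1682 CPM and at 271.9 against 1084 CPM. Cfp was no higher in the late set, at 48.4 against 43.9 CPM and at 53.0 against 46.1 CPM, and Olfm4 stayed at or under 7.81 CPM in both sets.

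Few cells carried both programs at once, and nearly all of them were in the Mpo-high gate. A cell was called high when the summed UMIs of Mpo, Elane, Prtn3 and Ctsg, or of Ltf, Camp, Ngp and Lcn2, reached 1% of its UMIs. Of cells high in either set, 41 of 1212 in library 1 were high in both, which is 3.38% (95% interval 2.44 to 4.56%). In library 2 there were 75 of 1765, or 4.25% (3.36 to 5.30%). The Mpo-high gate held 40 and 71 of these cells, the Fcnb-positive gate 1 and 4, and the Ly6g-positive and Csf3r-positive gates 0. With 331 and 565 high cells in the Ly6g-positive gate, a count of 0 allows a share of up to 1.11% and 0.651% by the exact interval. Within the Mpo-high gate, cells high in both were 19.9% and 16.9% of those high in either. The Mpo-high gate is drawn on one of the azurophil genes, so its share of such cells is partly set by the gate. With gates on genes that are no members the overall shares were 2.58% and 3.66%. How many of these cells were undetected doublets was not tested.

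**Figure D3:**
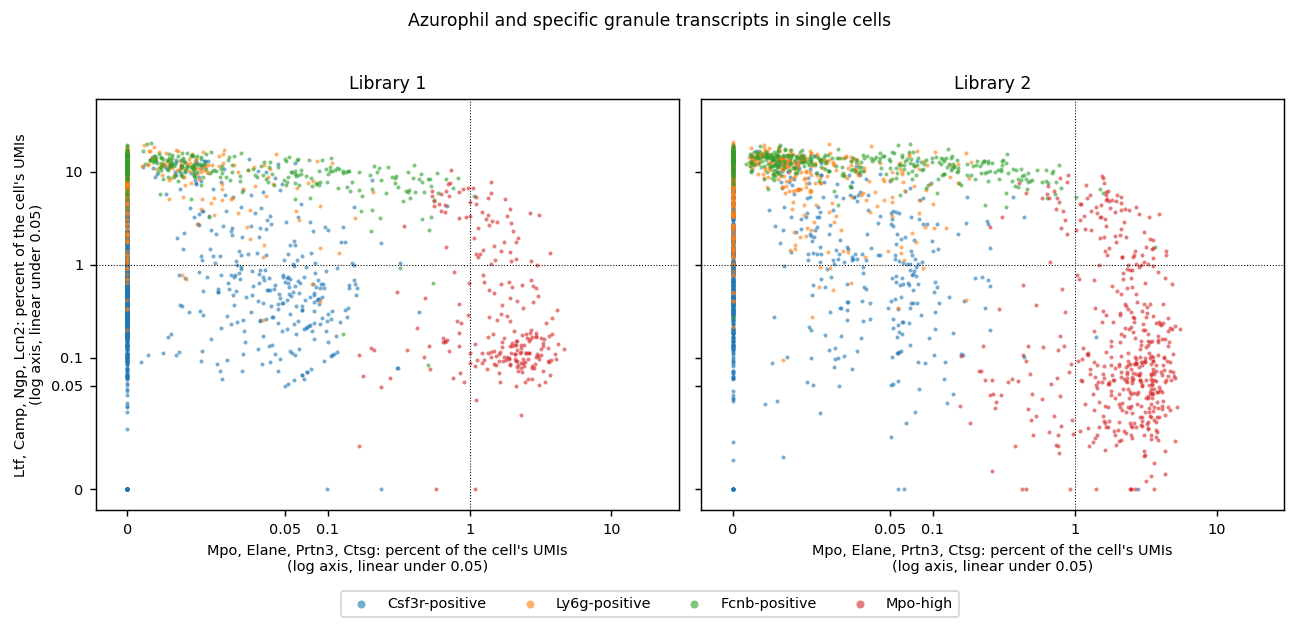
Each point is a cell of 1 of the 4 gates, placed by the percent of its UMIs from Mpo, Elane, Prtn3 and Ctsg and from Ltf, Camp, Ngp and Lcn2 (log axes that are linear under 0.05), with dotted lines at 1%. The 41 and 75 cells to the upper right of the lines form the bend between the Mpo-high and the Fcnb-positive cells.

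The other azurophil members had flatter courses. Ctsc, the dipeptidyl peptidase that activates the serine proteases, stood at 62.3, 31.8, 27.1 and 65.8 CPM along the gates of library 1 and at 57.2, 27.5, 34.6 and 61.8 CPM in library 2. These levels lay close to the 48.8 and 35.9 CPM of the B gate. The monocyte gate held 515.9 and 510.9 CPM of Ctsc, 7.85-fold and 8.27-fold more than the highest neutrophil gate. By CPM its transcript did not follow those of the proteases it activates. By mean UMIs per cell it was highest in the Mpo-high gate, as were 84.3% of all genes. It gave 1.01, 0.330, 0.153 and 0.185 UMIs in library 1 and 1.22, 0.380, 0.228 and 0.225 UMIs in library 2. This lead over the next gate was 3.06-fold and 3.20-fold, against 28.2-fold and 30.6-fold for Elane per cell. Gusb, the lysosomal beta-glucuronidase, went from 77.4 to 42.9, 23.5 and 29.1 CPM in library 1 and from 91.5 to 42.7, 19.8 and 22.3 CPM in library 2, with 42.0 and 38.9 CPM in the B gate. Like the proteases it was highest in the Mpo-high gate in both libraries, by 1.80-fold and 2.14-fold.

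Srgn encodes serglycin, the proteoglycan core on which granule proteins are packed. It stood at 2617, 1039, 2723 and 5751 CPM in library 1 and at 3009, 1014, 2337 and 4967 CPM in library 2. It was lowest in the Fcnb-positive gate, where the specific granule transcripts are near their peak, and highest in the Csf3r-positive gate. Per cell, Srgn gave 42.4, 10.8, 15.4 and 16.2 UMIs in library 1 and 64.1, 14.0, 15.4 and 18.1 UMIs in library 2, so the cells of the Mpo-high gate, the deepest, held most. The dip in the Fcnb-positive gate appeared on both scales. The B gate held 791.0 and 890.1 CPM of Srgn, which other blood cells also express.

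The 15 other azurophil and lysosomal genes listed beside the members did not move as one. Of them 4 were highest in the Mpo-high gate by at least 2-fold in both libraries and 1 in the Csf3r-positive gate, beside 21.8% and 4.0% of all genes, so the counts are near the background. Prss57, a serine protease of azurophil granules, led with 228.9, 35.9, 5.10 and 3.67 CPM in library 1 and 287.9, 30.6, 8.06 and 7.44 CPM in library 2. Gaa, the lysosomal alpha-glucosidase, and Arsb, an arylsulfatase, were also among the 4. Ctsd, the aspartic protease cathepsin D, was the 1 gene called in the Csf3r-positive gate and is named after its values were seen. It took the opposite course, with 264.2, 296.1, 506.8 and 1289 CPM in library 1 and 250.3, 269.1, 449.6 and 987.2 CPM in library 2.

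Most specific granule genes rose between the Mpo-high and the Fcnb-positive gate. Even so, Camp, Ngp, Chil3, Pglyrp1, Cd177, Hp and Fcnb were already well above their B-gate levels in the first. From the Mpo-high to the Fcnb-positive gate 21 of the 31 members tested were at least 2-fold higher in both libraries, against 5.32% of all measured genes. At this step 4 were at least 2-fold lower, against 26.1% of all genes: Elane, Prtn3, Ctsg and Srgn. The members' median log2 difference was 2.08 and 2.42 in libraries 1 and 2, beside −0.45 and −0.68 over all genes. These step counts were added after the values had been seen. Ltf, which encodes lactoferrin, had the widest span of the group, from 153.7 to 6346, 9563 and 2211 CPM in library 1 and from 107.3 to 9768, 11710 and 3861 CPM in library 2. Its level in the Mpo-high gate was close to the 113.5 and 118.8 CPM of the B gate. Camp gave 6466, 51620, 38420 and 9328 CPM in library 1 and 3999, 50010, 36100 and 11110 CPM in library 2. Ngp, a cystatin-like granule protein, gave 2931, 39320, 42710 and 11020 CPM in library 1 and 2040, 47640, 45340 and 15940 CPM in library 2. Lcn2, the siderophore-binding lipocalin, gave 724.6, 12220, 18970 and 6857 CPM in library 1 and 422.9, 16740, 20650 and 9493 CPM in library 2.

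By CPM the highest gate differed within this group, by small factors. By mean UMIs per cell it did not: Camp, Chil3, Ltf, Lcn2 and Ngp were all highest in the Fcnb-positive gate in both libraries, Ltf by 1.22-fold and 1.75-fold and Lcn2 by 1.19-fold and 1.70-fold. By CPM, Camp was 1.34-fold and 1.39-fold higher in the Fcnb-positive than in the Ly6g-positive gate, and Chil3 1.52-fold and 1.65-fold. Ltf was 1.51-fold and 1.20-fold higher in the Ly6g-positive gate, and Lcn2 1.55-fold and 1.23-fold. Ngp changed sides between the libraries, 1.09-fold higher in the Ly6g-positive gate of library 1 and 1.05-fold higher in the Fcnb-positive gate of library 2. None of the 31 members tested was 2-fold above every other gate in the Fcnb-positive or the Ly6g-positive gate, where 0.265% and 0.0294% of all genes were. Without the fold limit, the Ly6g-positive gate was highest for 12 members, against 3.23% of genes, the Fcnb-positive gate for 5, against 5.77%, and the Mpo-high gate for 4, against 56.0%.

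Camp, Ngp and Ltf all lie on chromosome 9. The promoters of Ltf and Ngp are shown because both hold a C/EBP-type motif within 200 bases of the start. Fcnb and Mmp8 also hold one there, beginning 123 and 19 bases before the start, and are not shown. Capitals mark TTGCNNAA or its reverse complement TTNNGCAA in the 200 bases before the start, 5′ to 3′ on the gene's strand, from RefSeq on GRCm38.p6. Ltf lies at chr9:111019092-111019291 and Ngp at chr9:110419608-110419807, both on the plus strand.
Ltf: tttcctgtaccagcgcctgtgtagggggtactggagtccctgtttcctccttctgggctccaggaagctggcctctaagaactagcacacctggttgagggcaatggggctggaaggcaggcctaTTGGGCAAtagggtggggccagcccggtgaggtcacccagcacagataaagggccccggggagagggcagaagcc
Ngp: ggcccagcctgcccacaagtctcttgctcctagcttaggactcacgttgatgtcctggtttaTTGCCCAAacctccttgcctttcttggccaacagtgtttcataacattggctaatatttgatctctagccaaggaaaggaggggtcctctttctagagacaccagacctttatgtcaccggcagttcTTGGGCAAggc
The match of Ltf begins 75 bases before the start, and those of Ngp begin 138 and 11 bases before it. In the windows of 300 bases around the start, this motif was found on either strand for 9 of the 31 members in the table: Adam8, Fcnb, Lcn2, Ltf, Lyz1, Mmp8, Ngp, S100a9 and Slpi. It occurs in 10.8% of all windows. It was not found for Camp, Mpo, Elane, Prtn3 or Ctsg, and such an absence says nothing about the factor. In no member did it overlap a GAGGAA match.

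The other specific granule members peaked in the same 2 gates with a few exceptions. Pglyrp1, the peptidoglycan recognition protein, stood at 706.3, 2007, 2162 and 1257 CPM in library 1 and at 562.4, 2332, 2451 and 1904 CPM in library 2. Hp, for haptoglobin, was already at 1206 and 737.9 CPM in the Mpo-high gate and differed by 1.06-fold and 1.02-fold between the Fcnb-positive and Ly6g-positive gates. Orm1, an acute phase glycoprotein, gave 10.1, 144.4, 162.8 and 37.6 CPM in library 1 and 7.15, 161.4, 90.5 and 23.4 CPM in library 2. Its highest gate differed between the libraries. Cfp, for properdin, had its highest CPM in the Csf3r-positive gate, with 45.3, 48.0, 116.9 and 134.9 CPM in library 1 and 38.8, 74.7, 173.2 and 253.5 CPM in library 2. In library 1 this lead over the Ly6g-positive gate was 1.15-fold and within counting error, and the direction turned by mean UMIs per cell, by the mean of the cells' CPM, in thinned cells and when scaled to the UMIs of other genes. The monocyte gate held more Cfp still, 275.7 and 348.3 CPM. Chil3, also a macrophage gene, stood at 1057, 7604, 4993 and 1213 CPM in library 1 and at 432.8, 6046, 3654 and 1033 CPM in library 2. The monocyte gate held 2739 CPM of it in library 1 and 472.0 CPM in library 2.

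Of the lysozymes, Lyz2 is shared with monocytes and macrophages. It stood at 710.1, 6662, 8844 and 4068 CPM in library 1 and at 525.2, 8762, 10540 and 5262 CPM in library 2, with 7495 and 9949 CPM in the monocyte gate. Lyz1, its neighbour and near-identical copy, reached at most 6 UMIs in any of the 4 gates of library 1 and 14 in library 2, and was the 1 member of 34 not measured. Reads that both copies share could have been lost or assigned to either, so the value of Lyz1 is uncertain.

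Olfm4, which encodes olfactomedin 4, was present in few cells at a high count. In the Ly6g-positive gate of library 1 Olfm4 and Padi4 had the same total of 386 UMIs, or 197.0 CPM (95% interval 177.9 to 217.7). Yet Olfm4 was found in 27 of 347 cells (7.78%), with a mean of 14.3 UMIs in those cells and up to 76. Padi4, the histone-citrullinating enzyme of extracellular trap formation, was found in 192 cells (55.3%), with a mean of 2.01 UMIs and at most 10. In library 2 the totals were 829 and 879 UMIs. Olfm4 was found in 48 of 583 cells (8.23%) with a mean of 17.3 UMIs, and Padi4 in 397 cells (68.1%) with a mean of 2.21 UMIs.

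At 1000 UMIs per cell, 5.76% and 6.35% of Ly6g-positive cells had an Olfm4 UMI against 21.0% and 22.6% for Padi4, and in the B gate 0.272% and 0.159% had one for Olfm4. The variance of the thinned counts was 3.77 and 4.70 times their mean for Olfm4 and 1.06 and 1.01 times for Padi4. Only 7.78% and 8.23% of Ly6g-positive cells had an Olfm4 UMI, so the tenth of cells with most Olfm4 necessarily held all of its UMIs. The tenth with most Padi4 held 41.2% and 34.02% of Padi4. Cells with Olfm4 were also found in the other late gates: 8.58% and 5.93% of Fcnb-positive cells and 3.28% and 5.43% of Csf3r-positive cells. In the Mpo-high gate, the deepest, 5.15% and 3.81% had at least 1 UMI but only 1 cell in each library had 5 or more.

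**Figure D4:**
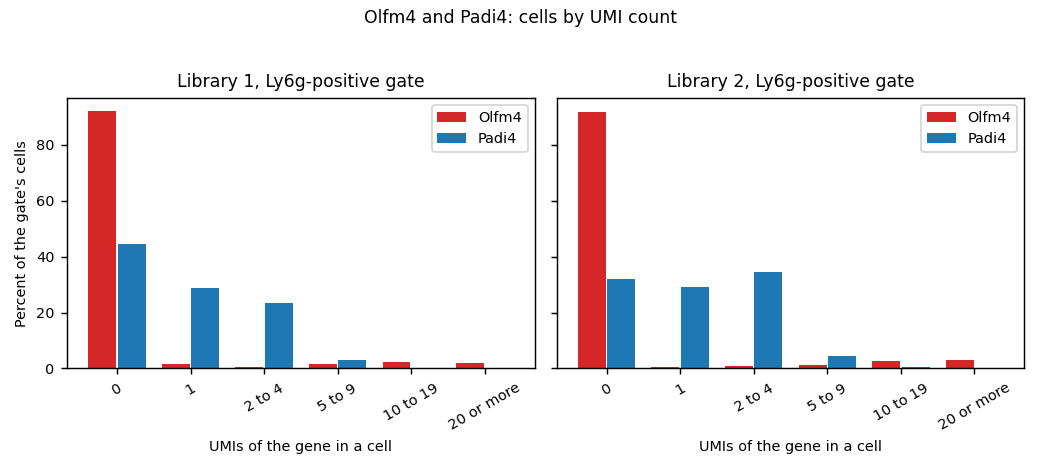
Percent of the cells of the Ly6g-positive gate by their UMI count of Olfm4 and of Padi4, for each library. Olfm4 is at 0 in 92.2% and 91.8% of cells with a separate group from 5 UMIs upward. Padi4 is at 0 in 44.7% and 31.9% of cells and otherwise mostly at 1 to 4 UMIs.

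Cd177, the neutrophil antigen that presents proteinase 3 at the surface, is known in people as a marker of only some neutrophils. Here its RNA, which cannot be set directly against a surface trait, was spread over most immature cells but found in a minority of mature cells. Cd177 gave 68.6, 735.6, 769.7 and 276.8 CPM in library 1 and 47.3, 939.5, 1039 and 493.6 CPM in library 2. A UMI of it was found in 91.4% and 93.3% of Fcnb-positive cells, against 2.67% and 2.86% of B cells. In the Ly6g-positive gate 77.0% and 90.6% of cells had one, and in the Csf3r-positive gate, the shallowest, 25.2% and 49.4%. At 1000 UMIs the share in the Ly6g-positive gate was 46.1% and 58.0%, and the variance was 1.28 and 1.31 times the mean.

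Several genes of gelatinase granules, vesicles and the membrane had higher CPM in the later gates. From the Fcnb-positive to the Ly6g-positive gate 9 of 31 members were at least 2-fold higher in both libraries, against 3.97% of all genes. These were Mmp8, Mmp25, Fpr1, Fpr2, Adam8, Cfp, Padi4, Slpi and Srgn. Elane and Prtn3, or 2 of 31, were at least 2-fold lower, against 15.8% of genes. By mean UMIs per cell the balance turned, with 2 members higher, against 0.775% of all genes, and 8 lower, against 54.7%. Mmp8, the neutrophil collagenase, showed the largest step, from 14.3 to 585.9 CPM in library 1 and from 54.0 to 1142 CPM in library 2, or 40.9-fold and 21.2-fold. It stayed at 735.3 and 1443 CPM in the Csf3r-positive gate. In the Mpo-high gate it was at 6.09 and 11.5 CPM, beside 7.54 and 4.83 CPM in the B gate. Mmp8 is usually placed in specific granules, but its course differed from that of Ltf and Camp, which were already high in the Fcnb-positive gate.

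The 2 formyl peptide receptors, encoded next to each other on chromosome 17, followed Mmp8 less steeply. Fpr1 gave 16.4, 92.2, 753.9 and 1244 CPM in library 1 and 2.68, 53.4, 405.1 and 624.2 CPM in library 2. Fpr2 gave 12.98, 158.7, 602.3 and 514.7 CPM in library 1 and 3.97, 187.3, 528.4 and 404.6 CPM in library 2. Fpr1 was highest in the Csf3r-positive gate by 1.65-fold and 1.54-fold, whereas Fpr2 was highest in the Ly6g-positive gate by 1.17-fold and 1.31-fold. Adam8, a membrane metalloprotease, gave 46.1, 195.3, 745.2 and 1031 CPM in library 1 and 47.7, 254.7, 784.0 and 1270 CPM in library 2. Mmp25, a membrane-anchored matrix protease, peaked in the Ly6g-positive gate at 254.7 and 251.2 CPM, with 84.9 and 101.5 CPM before it and 132.4 and 190.2 CPM after it. Itgam, the alpha chain of the Mac-1 integrin, gave 100.9, 401.3, 505.8 and 378.0 CPM in library 1 and 87.0, 396.2, 528.4 and 495.1 CPM in library 2. In library 2 its 2 highest gates differed by 1.07-fold, within counting error.

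Cybb and Cyba, the membrane subunits of the NADPH oxidase, had an earlier highest gate by CPM than the rest of this group. By mean UMIs per cell Itgam was also highest in the Fcnb-positive gate in both libraries. Cybb gave 738.9, 1897, 1508 and 634.6 CPM in library 1 and 360.0, 1534, 1261 and 590.0 CPM in library 2. Cyba gave 640.9, 1305, 1254 and 858.8 CPM in library 1 and 614.6, 1498, 1381 and 960.4 CPM in library 2, with 368.5 and 455.2 CPM in the B gate, since many cells express it. Its lead over the Ly6g-positive gate was only 1.041-fold in library 1, within counting error, and 1.085-fold in library 2. The direction turned with gate limits doubled, with gates on genes that are no members and when scaled to the UMIs of other genes. Of the oxidase's partners, Rac2, the small GTPase of the complex, was highest in the Ly6g-positive gate, at 936.6 and 1276 CPM. Hvcn1, the proton channel that balances the charge, was highest in the Mpo-high gate of library 1, at 76.3 CPM, and in the Fcnb-positive gate of library 2, at 60.9 CPM.

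S100a8 and S100a9 were among the cytosolic members and lie side by side on chromosome 3. S100a8 gave 18750, 93780, 121700 and 56330 CPM in library 1 and 17690, 135300, 154700 and 100600 CPM in library 2. S100a9 gave 10850, 58610, 69100 and 38830 CPM in library 1 and 8850, 74410, 84410 and 63910 CPM in library 2. An S100a8 UMI was also found in 95.9% and 93.6% of B cells, and in 82.3% and 77.9% of those thinned to 1000 UMIs. Serpinb1a, an inhibitor of the azurophil proteases, peaked in the gate after theirs, with 594.5, 900.3, 527.8 and 155.7 CPM in library 1 and 549.5, 804.4, 411.1 and 164.5 CPM in library 2. Slpi, the secreted inhibitor of elastase, was highest at the end, with 936.1, 604.2, 1648 and 2396 CPM in library 1 and 632.4, 648.7, 1969 and 2710 CPM in library 2. Padi4 gave 8.48, 59.8, 197.0 and 155.4 CPM in library 1 and 9.33, 100.3, 228.6 and 236.0 CPM in library 2. By mean UMIs per cell both inhibitors were instead highest in the Mpo-high gate in both libraries, Serpinb1a by 1.03-fold and 1.05-fold and Slpi by 1.63-fold and 1.04-fold.

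From the Ly6g-positive to the Csf3r-positive gate the granule content transcripts receded. Of 31 members 10 were at least 2-fold lower in both libraries, against 1.77% of all genes: Camp, Ngp, Lcn2, Ltf, Chil3, Orm1, Cd177, Cybb, Lyz2 and Serpinb1a. At least 2-fold higher were 2, Srgn and Elane, against 7.42% of genes. Elane did so at 20.9 to 68.1 CPM, beside 23.8 and 52.8 CPM in the B gate. The members' median log2 difference was −0.71 and −0.36, beside 0.02 and 0.19 over all genes. Mature cells varied widely. Camp had a mean of 26.3 UMIs per Csf3r-positive cell in library 1 but a median of 2.00 and a highest count of 1452, and in library 2 a mean of 40.5, a median of 2.00 and a highest count of 1204. A Camp UMI was found in 77.5% and 75.2% of Csf3r-positive cells and in 74.6% and 59.7% of B cells. Thinned to 1000 UMIs, these shares were 59.4% and 58.1% against 46.3% and 37.1%, so presence of a Camp UMI says little by itself.

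Mature cells with more Il1b than Retnlg UMIs numbered 394 and 102, and those with more Retnlg than Il1b 736 and 609. Il1b encodes an inflammatory cytokine and Retnlg a resistin-like protein of mature neutrophils, and neither is a member. The Il1b-rich cells held less granule RNA. Camp stood at 1607 against 11400 CPM in library 1 and at 3184 against 12360 CPM in library 2. Ltf stood at 336.0 against 2816 CPM and at 1002 against 4273 CPM, and Mmp8 at 327.8 against 913.7 CPM and at 445.3 against 1632 CPM. S100a8 stood at 16770 against 70910 CPM and at 31610 against 112800 CPM. Srgn went the other way, at 7909 against 5079 CPM and at 7195 against 4832 CPM, while Slpi differed little, at 2270 against 2496 CPM and at 2445 against 2840 CPM. The Il1b-rich cells were shallower, with medians of 1863 and 1972.5 UMIs against 2556 and 3115. This division was made after values had been seen.

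Over the whole set, 30 of 33 measured members had the same highest gate in both libraries by CPM. Without the gate genes it was 28 of 31, against 83.0% of all genes. Ngp, Orm1 and Padi4 were the exceptions. By role, the highest gate was the Mpo-high gate for 5 of 7 azurophil members, the gate gene Mpo among them. Ctsc and Srgn were highest in the Csf3r-positive gate, Ctsc by 1.06-fold and 1.08-fold, within counting error. Of 12 specific granule members 3 were highest in the Fcnb-positive, 6 in the Ly6g-positive and 1 in the Csf3r-positive gate. Of 8 gelatinase and membrane members 2, 3 and 3 were highest in these gates. Over all genes outside the gate genes, 56.0%, 5.77%, 3.23% and 18.0% were highest in the 4 gates, in order. The 5 of 7 azurophil members are thus near the share of all genes. In the Csf3r-positive gate 7 members had their highest level, against 18.0% of genes, and 0 were 2-fold above every other gate, against 4.0% of genes.

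Which gate was highest depended on whether RNA was counted as CPM or per cell, because cells of the later gates held fewer UMIs. By mean UMIs per cell, 31 of 33 members had the same highest gate in both libraries, and this was the Mpo-high gate for 9, the Fcnb-positive gate for 15, the Ly6g-positive gate for 7 and the Csf3r-positive gate for 0. For 15 members the gate differed between the scales. Ltf stood at 2.49, 65.9, 54.0 and 6.23 UMIs per cell in library 1 and at 2.29, 135.0, 77.2 and 14.1 in library 2, highest in the Fcnb-positive gate. Fpr1 stood at 0.266, 0.957, 4.26 and 3.51 UMIs per cell and at 0.0571, 0.738, 2.67 and 2.27, highest in the Ly6g-positive gate. Without the gate genes the counts were 8, 14, 7 and 0 of 31, against 84.3%, 5.87%, 1.13% and 2.22% of all genes. From the Ly6g-positive to the Csf3r-positive gate 18 of 31 members were at least 2-fold lower per cell in both libraries, against 23.3% of all genes, and 0 were higher, against 1.56%.

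**Figure D5:**
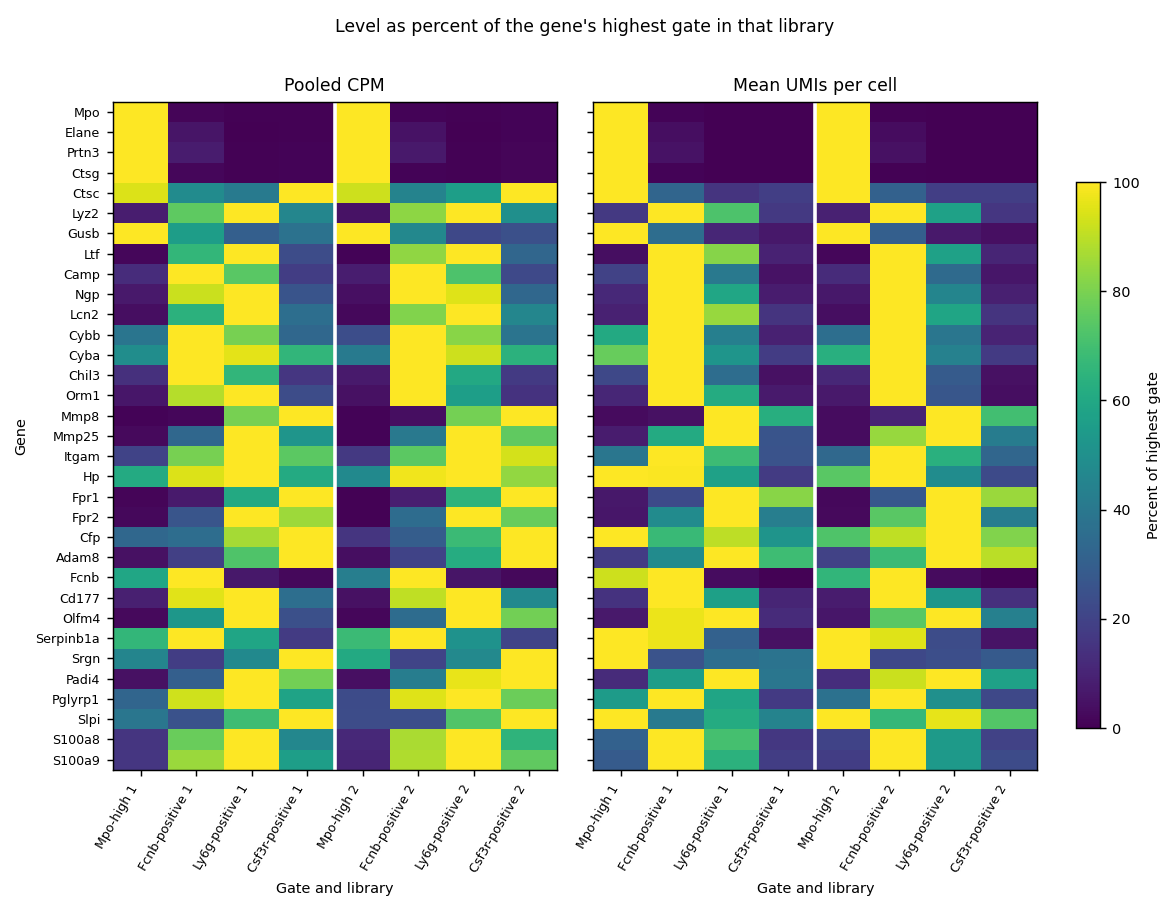
Level of each of the 33 measured members in the 4 gates of libraries 1 and 2 as a percent of its highest gate in that library, on the left by pooled CPM and on the right by mean UMIs per cell. By UMIs per cell 0 members are highest in the Csf3r-positive gate in both libraries, against 7 by CPM.

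Regulators and release genes listed beside the members are given for context. Over all genes 21.8% were called for the Mpo-high gate and 4.0% for the Csf3r-positive gate, and with so few genes per list the counts that follow are not told apart from these shares. Of 10 regulators 3 were highest in the Mpo-high gate by at least 2-fold: Cebpa, the C/EBP factor of early myeloid cells, Myb, a progenitor factor, and Gfi1, a repressor needed for neutrophils. Cebpa stood at 42.9 and 56.6 CPM there and at 6.68 and 2.68 CPM in the Fcnb-positive gate. Cebpe peaked with the first specific granule genes, at 249.8, 397.5, 217.4 and 67.0 CPM in library 1 and at 230.6, 426.4, 168.2 and 49.5 CPM in library 2. Of 8 measured exocytosis genes 1, Snap23, a membrane fusion protein, was called, in the Csf3r-positive gate, at 415.7 and 320.5 CPM. Of 11 measured genes of specific and gelatinase granules and vesicles 1, the metal transporter Slc11a1, was called, also there, at 251.7 and 233.4 CPM. Of 7 cytosolic protease inhibitors Stfa2l1 and Cstb were called in the same gate, at 554.2 and 350.3 CPM and at 534.0 and 366.3 CPM. The genes that led each gate over all measured genes, gate genes and members left aside, were Smyd2, Srm, Phgdh, Atic and Gm44206 in the Mpo-high gate, E2f7, Cdkn2c, Tcf19, D430020J02Rik and Gpsm2 in the Fcnb-positive gate, F730016J06Rik, 1700096K18Rik and Nrp1 in the Ly6g-positive gate, and Il23a, Sirpb1c, Pira13, Il18 and Gpr35 in the Csf3r-positive gate.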

How the data were processed

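Both libraries were made with GEXSCOPE bone dissociation from alveolar bone pooled from 6 mice per group, per the labels. The deposited files hold the authors' UMI counts per gene and barcode for 1769472 barcodes a library. FastQC 0.11.9 and the builds GRCh38 and mm10 are listed in the submitters' processing notes. The aligner and the counting program were not given in the sources used. Rows without a symbol held 0.602% and 0.431% of UMIs in libraries 1 and 2 and were left out, which left 77572847 and 116775367 UMIs.

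Cells needed at least 747 and 1016 UMIs (the inflection of the barcode rank curve), 200 genes and at most 20% mitochondrial UMIs. Scrublet marked 0 and 4 cells, under 0.5%, so the 5% with the highest scores were removed instead, 503 and 612. Cells carrying another lineage's markers, 346 and 410, were left out of the 4 gates. UMIs were summed per gate and given per 1000000 UMIs of the gate (CPM).

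A gene was measured with at least 20 UMIs in some gate of each library, and levels under 3 UMIs were set to 3 for folds. Each library is 1 pool and neither has a group label, so no test was made. A gene was called for a gate when at least 2-fold above the next gate in both libraries. All members are described. In each list of other genes up to 3 were named by the fold in the lower library, and 5 per gate among all genes. The members and lists were chosen with earlier results of these data known. Alternatives changed the scale, gates, cell filters and fold limit. Python 3.11.15, NumPy 2.4.6, SciPy 1.17.1, pandas 2.3.3, Scanpy 1.11.5 and Matplotlib 3.10.9 were used, and the scripts were tested on simulated data.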

Additional observations from a re-analysis of the deposited data

Results flagged for a closer look

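Barcodes that were not called as cells also carried the granule genes. Of all UMIs of the 34 genes, 27.65% in library 1 and 23.57% in library 2 lay outside called cells, a part of the files that no comparison used. Over all genes these shares were 30.85% and 27.86%. For Mpo, Elane, Prtn3 and Ctsg together they were 24.34% and 21.4%, and for Ltf, Camp, Ngp and Lcn2 together 28.07% and 23.77%.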

How the results depend on the processing

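Counts of members are given here where an alternative moved them by over 1.5 times. By mean UMIs per cell, 6 members were called in the Mpo-high gate and 2 in the Fcnb-positive gate. No share over all genes is given for these 2-fold calls, so they are not read as results about the members. Whatever the fold, 8 and 14 of 31 members were highest in these gates on this scale, against 84.3% and 5.87% of all genes. The Fcnb-positive to Ly6g-positive step had 2 higher and 8 lower, against 0.775% and 54.7% of all genes. The Ly6g-positive to Csf3r-positive step had 0 higher and 18 lower, against 1.56% and 23.3%. For the member counts under other settings no share over all genes is given, so they are not read as results about the members. By the mean of the cells' CPM, 1 was called in the Csf3r-positive gate, 4 were lower at the Ly6g-positive step and 1 was higher at the Csf3r-positive step. With cells thinned to 1000 UMIs, 1 was called in the Csf3r-positive gate. The 2 members higher at the last step became 1 with cells of at least 2000 UMIs, 1 with gate limits doubled, 0 with them halved, 5 with cells of other lineages kept, 5 with the B-gate level subtracted, and 0 when scaled to the UMIs of genes that are no members, an alternative chosen after seeing the data. Doubled gate limits gave 4 lower at the Ly6g-positive step and 6.17% and 6.14% of cells high in both sets. A 1.5-fold limit gave 1 called in the Fcnb-positive and 2 in the Csf3r-positive gate, 6 lower at the Ly6g-positive step and 6 higher at the last. A 3-fold limit gave 3 higher at the Ly6g-positive step and 0 higher and 4 lower at the last. Cells high in both sets were 5.82% and 6.58% at a limit of 0.5% of UMIs and 0.302% and 0.915% at 2%. Under the other alternatives 3 or 4 members were called in the Mpo-high gate.

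The log2 difference of a member's highest gate over the next, in the lower library, changed sign as follows. By mean UMIs per cell it was −2.44 for Ctsc, −0.80 for Lyz2, −0.81 for Ltf, −0.76 for Lcn2, −0.67 for Mmp8, −0.65 for Itgam, −1.04 for Hp, −0.28 for Fpr1, −0.95 for Cfp, −0.53 for Adam8, −0.92 for Cd177, −0.074 for Serpinb1a, −1.82 for Srgn, −0.99 for Pglyrp1, −1.17 for Slpi, −0.87 for S100a8 and −0.88 for S100a9. By the mean of the cells' CPM it was −0.55 for Ctsc, −0.11 for Mmp8, −0.031 for Cfp and −0.10 for Cd177. In thinned cells it was −0.89 for Ctsc, −0.016 for Mmp8, −0.13 for Hp, −0.12 for Cfp and −0.036 for Cd177. It was −0.061 for Ctsc with no doublets removed, −0.12 for Ctsc, −0.11 for Cyba and −0.16 for Itgam with gate limits doubled, and −0.10 for Hp and −0.15 for Cd177 with them halved. On gates of genes that are no members it was −0.13 for Ctsc, −0.039 for Cyba, −0.035 for Mmp25, −0.16 for Itgam and −0.056 for Hp. With other lineages kept it was −0.20 for Mmp8, and scaled to other genes −0.027 for Cyba, −0.023 for Mmp8 and −0.14 for Cfp. The cause was not tested. No sign changed with cells of at least 2000 UMIs, a 5% mitochondrial limit or the B-gate level subtracted. No paired analysis was possible because each library is 1 pool with no group label.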
